A study of Mus musculus with 26 samples.

Results

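The genes described here are 8 mouse long noncoding RNAs (lncRNAs): Neat1, Malat1, Bc1, 2310043L19Rik, Gm5532, AI480526, Gm2694 and 5430401H09Rik. They were taken by symbol from the 2 deposited expression tables, which list 53465 genes for regenerating muscle and 55487 genes for C2C12 cells. All 8 are of the lincRNA type, of which 5307 genes are listed for muscle and 5629 for C2C12 cells. Each was found by symbol in the cell table and 7 of 8 in the muscle table, where the gene identifier of Bc1 carries the symbol AC161763.1 and was matched by the identifier instead. 2310043L19Rik, Neat1, Bc1, Gm5532, Gm2694 and AI480526 were picked by the study from Mettl3 overexpression and m6A libraries that are not analysed here, and Malat1 was added as a well-known lncRNA. 5430401H09Rik was chosen from the muscle table itself for its high level at day 10 against day 3, so its muscle values are given as a description with no test.

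The study asked how the RNA methyltransferase METTL3 acts in muscle repair and in myoblast differentiation. Tibialis anterior (TA) muscle of C57BL/6J mice, six-week-old males by the methods, was sequenced at days 0, 1, 3, 5 and 10 after cardiotoxin (CTX), a venom protein that destroys muscle fibres, with 2 libraries per day. The methods name saline as the control of this experiment, and whether the day 0 muscle was given saline is not stated in the labels. C2C12 cells, a mouse myoblast line, were controls (Ctrl) or carried dCas9-KRAB with guides to the Mettl3 promoter (Cas9M3, a knockdown that represses transcription), and were sequenced in growth medium (GM, day 0) and at day 3 in differentiation medium (DM3), with 2 libraries per group. The Cas9M3 line was made by lentivirus and puromycin selection, and how the control line was made is not given in the sources used here. The labels do not say whether the 2 libraries of a group came from separate animals, cultures or lines, and p-values then measure only the spread between these libraries.

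Neat1 and Malat1 are abundant nuclear RNAs transcribed from neighbouring genes. Neat1 is the scaffold of paraspeckles, nuclear bodies that hold RNA-binding proteins, while Malat1 gathers in nuclear speckles, where splicing factors are stored. Bc1 is a short RNA polymerase III transcript of the cytoplasm, best known in neurons, where it represses the initiation of translation. METTL3 adds N6-methyladenosine (m6A) to RNA within a short sequence context of which GGACU is the best-known form, and lncRNAs carry this mark as well as mRNAs.

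The annotation (GRCm38) places the genes as follows. Malat1 lies at chr19:5795690-5802672 on the minus strand and Neat1 at chr19:5824708-5845478 on the same strand, each as 1 exon block, of 6983 and 20771 bases. Bc1 lies at chr7:144914470-144914637 on the plus strand, as a single exon of 168 bases 462 bases from LTO1. 2310043L19Rik has 3 exon blocks at chr1:177641542-177642943 (minus) and 698 exonic bases, and Gm5532 has 3 exon blocks at chr1:155520173-155527143 (minus) and 2206 exonic bases. AI480526, at chr5:123133723-123141666 (minus, 8 exon blocks), lies between Rhof, 1030 bases away, and Setd1b, 526 bases away. Gm2694 spans chr8:87460469-87525554 (plus, 9 exon blocks) and holds the gene Cbln1 on the other strand, and 5430401H09Rik spans chr12:32096613-32123702 (minus, 3 exon blocks) between Prkar2b and Pik3cg.

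Bc1 is printed whole because it is by far the shortest of the 8, with an A-rich centre. Capitals mark its longest run of A, 23 bases from base 77 to base 99. The transcript sequences printed here are those of GENCODE M21 on GRCm38.
Bc1-201, bases 1 to 168: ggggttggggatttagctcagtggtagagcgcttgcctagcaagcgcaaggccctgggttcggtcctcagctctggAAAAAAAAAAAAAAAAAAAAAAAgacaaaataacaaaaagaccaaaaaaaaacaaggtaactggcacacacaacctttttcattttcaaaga

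Neat1 has a long isoform of 20771 bases (Neat1-201), which builds paraspeckles, and a short polyadenylated isoform of 3004 bases (Neat1-202). Their last 60 bases are shown because the values below are sums over both isoforms, which start together and differ in their ends. Capitals mark AATAAA, the usual signal for polyadenylation, which was searched on the transcript strand in the last 50 bases of each transcript.
Neat1-202, bases 2945 to 3004: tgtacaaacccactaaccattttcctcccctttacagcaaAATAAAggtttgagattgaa
Neat1-201, bases 20712 to 20771: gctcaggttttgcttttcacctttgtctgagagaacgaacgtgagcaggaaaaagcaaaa
The short isoform holds the signal and the long one does not hold these letters in its last 50 bases. Over the 8 genes, 16 of 32 annotated transcripts held AATAAA there, of which 8 are isoforms of Gm2694 and 3 of Malat1, and 30.6% of the 9101 lincRNA transcripts of the annotation did.

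2310043L19Rik has been described in myoblasts as a competing RNA for miR-125a-5p, and Gm5532 in osteoclasts as one for miR-125a-3p. The 2 arms of this miRNA (RefSeq, GRCm38.p6) are shown with the seed, bases 2 to 8, in capitals, followed by the matches that lie in the lncRNA described for that arm and by the match of 2310043L19Rik to the other arm, also in capitals.
mmu-miR-125a-5p: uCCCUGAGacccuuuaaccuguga
2310043L19Rik-201, bases 356 to 384: aaagtgggagctTCAGGGaacagaaaatt
mmu-miR-125a-3p: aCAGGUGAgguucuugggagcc
Gm5532-201, bases 1137 to 1166: gcaagttcatgtTCACCTGtgagactcacg
2310043L19Rik-201, bases 140 to 169: cactcccagaacTCACCTGaccaactcctg
2310043L19Rik-201 held no match of 7 bases to the 5p seed and 1 match of 6 bases (TCAGGG, bases 368 to 373), which 18.7% of the 1632 annotated lincRNA transcripts of 600 to 800 bases also hold. Its match of 7 bases to the 3p seed (TCACCTG, bases 152 to 158) is shared by 8.21% of those transcripts. Gm5532-201 held the same 7 letters at bases 1149 to 1155, and a match of 6 bases to the 5p seed at bases 1541 to 1546 that is not shown. The 7 letters are also held by 18.5% of the 783 lincRNA transcripts of 1500 to 2000 bases, and the 6 bases by 40.0%. All matches were searched on the transcript strand only and are descriptions of sequence.

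The m6A context GGACT was counted on the transcript strand as well. Malat1-201 held 9 copies in 6983 bases, Neat1-201 held 23 in 20771 and Neat1-202 held 6 in 3004, which is 1.29, 1.11 and 2.00 copies per kb. 2310043L19Rik-201 held 2 copies in 698 bases (2.87 per kb), and Bc1-201 and Gm5532-201 held 0. Over all lincRNA transcripts of at least 200 bases the rate was 1.16 per kb, with a median of 0.991 per transcript.

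Expression is given in FPKM, fragments normalised to the full exon length of a gene and to library size. This corrects for gene length, but where isoforms differ in length, as for Neat1, levels compare between genes only roughly, even within a library. The low values of each gene are whole multiples of the value of 1 read, so read counts could be recovered for every lncRNA. The libraries held 14170000 to 18820000 reads on genes in muscle and 14230000 to 29560000 in C2C12 cells, where replicate 2 was the shallower library in each of the 4 groups. The 2 tables were scaled separately by the authors, and levels are therefore compared only within a table. In bulk RNA, fewer cells of a type and less RNA per cell cannot be told apart.

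Several facts about the libraries bear on what follows. Mettl3 was at 4.68 to 5.65 FPKM in the 4 Ctrl libraries and at 0.0805 to 0.331 in the 4 Cas9M3 libraries, and its fitted change was -4.10 (log2, adjusted p = 0.188) in GM and -4.56 (adjusted p = 0.0187) on DM3. In muscle Mettl3 was at 3.59 to 4.97 FPKM. Xist, a lncRNA of the inactive X chromosome, was at 5.77 to 10.0 FPKM in 5 of 10 muscle libraries (both of day 0, both of day 10 and replicate 2 of day 3) and at 0.0170 to 0.152 in the other 5, although the methods describe male mice. The summed FPKM of 7 myofibre markers was 45717 to 47935 at day 0 and 11656 to 13472 at day 3, while that of 5 macrophage markers was 35.0 to 72.0 at day 0 and 1210 to 1213 at day 3. In C2C12 cells the same myofibre markers summed to 432 to 484 in Ctrl DM3 and to 12.1 to 14.6 in Cas9M3 DM3, and in GM they were higher in replicate 1 (125 in Ctrl, 83.9 in Cas9M3) than in replicate 2 (15.2 and 5.38). Markers of neurons, the cells in which Bc1 is best known, summed to at most 0.0561 FPKM in muscle and 0.996 in C2C12 cells. Only day 3 held a library with Xist beside one without, so a term for Xist-expressing libraries is set by its 2 libraries alone. Days 1 and 5 differ wholly from day 0 in Xist, and day and Xist cannot be told apart there. The part of Xist-expressing libraries in the results below was not tested, nor that of cell makeup and replicate depth unless a value is given.

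By FPKM, Malat1 was the highest of the 8 lncRNAs in every library, and Neat1 came next in muscle. In C2C12 cells Bc1 was above Neat1 in 4 of 8 libraries. Malat1 ranked between 3 and 5 among the 5307 lincRNA genes of muscle in every library, and between 1 and 2 among the 5629 of C2C12 cells. Neat1 ranked between 7 and 15 in muscle and between 9 and 62 in C2C12 cells, where Bc1 ranked between 6 and 61. AI480526 was detected in every library of both tables, at 237 to 608 reads in muscle and 14 to 200 in C2C12 cells. Gm2694 was close to the limit of detection in muscle (0 to 5 reads, with 0 reads in 4 of 10 libraries), and 5430401H09Rik was close to it in C2C12 cells (0 to 2 reads, 0 reads in 4 of 8 libraries). A count of 3 reads on Gm2694 corresponds to about 0.0258 to 0.0427 FPKM in muscle, and both day 3 libraries alone had more than 3 reads.

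**Figure D1:**
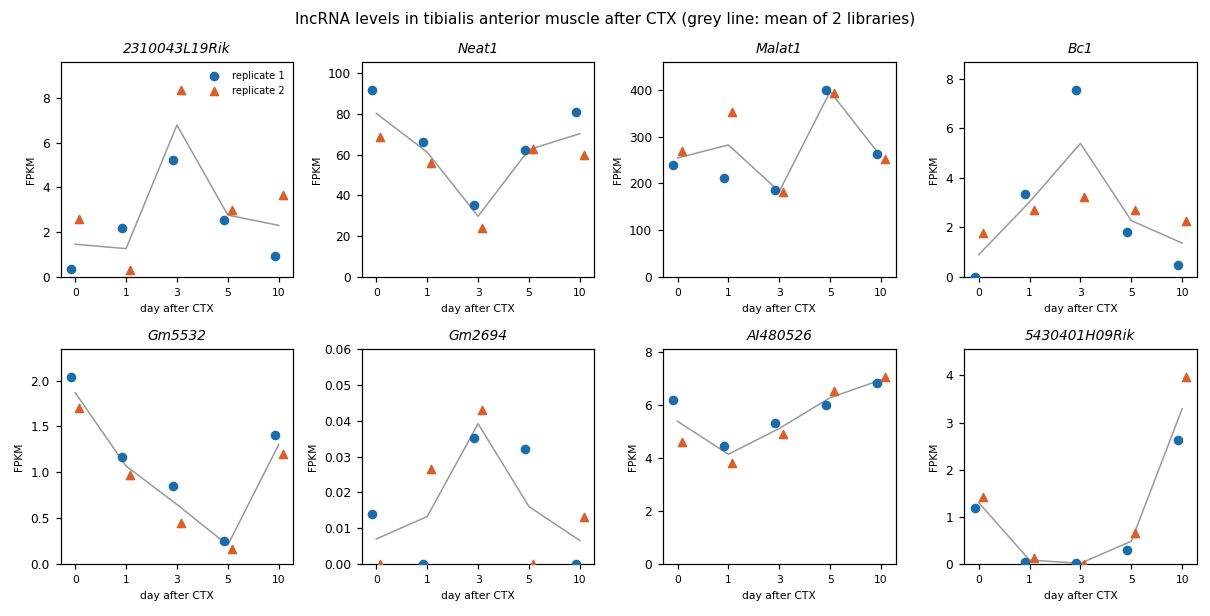
Levels of the 8 lncRNAs in TA muscle, with the day after CTX on the horizontal axis and FPKM on the vertical axis, which starts at 0 and has its own range in each panel. Circles are replicate 1, triangles replicate 2 and grey lines join the means of 2 libraries. Neat1 was lowest at day 3 (35.5 and 24.01 FPKM), Gm5532 at day 5 (0.250 and 0.161), and 2310043L19Rik was highest at day 3 (5.23 and 8.36).

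A gene entered the test when 2 or more libraries of its table reached 0.5 FPKM, which 16753 did in muscle and 13824 in C2C12 cells. The test was limma on log2(FPKM + 0.1), and a change was called at a Benjamini-Hochberg adjusted p of at most 0.05. This covered 6 of the lncRNAs in muscle (without Gm2694, which did not pass the filter, and 5430401H09Rik, which is only described) and 6 in C2C12 cells (without Gm5532 and 5430401H09Rik). 2310043L19Rik passed in C2C12 cells only through its 2 Ctrl DM3 libraries, so its share in any count there is not independent of that group being high. Gm2694 passed there only through GM libraries, and the same limit holds for it. With 2 libraries against 2, an exact permutation test of a single gene cannot give a two-sided p below 0.333.

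In muscle, Neat1 and Gm5532 fell at day 3, Gm5532 fell at day 5 as well, and Bc1 rose at day 3 by a call that leaving out almost any library ended. Against day 0, 0 of 6 lncRNAs were called at day 1 (6% of all genes tested were called), 3 of 6 at day 3 (48.8%), 1 of 6 at day 5 (25.5%) and 0 of 6 at day 10 (0.00597%). Between day 3 and day 10, 2 of 6 were called (37.9%). The share of the lncRNAs called at day 3 is near that of all genes. With a log2 change of at least 2 also required, 1 of 6 was called at day 3 (13.3% of all genes) and 0 of 6 from day 3 to day 10 (8.28%). For the counts of 0 by limma, 1 of 6 had an unadjusted p of at most 0.05 at day 1 (26.8% of all genes) and 0 of 6 at day 10 (10.1%), and limma voom on the recovered reads called 0 of 6 on both days. The median change of the 6 lncRNAs at day 3 was -0.27 on the log2 scale, beside 0.01 for all genes. Among all tested genes of the lincRNA type, 97 of 549 were called higher and 129 lower at day 3. The libraries of day 3 and day 0 did not overlap for 77.9% of all genes tested, and those of day 5 and day 0 for 70.8%. A lack of overlap, as described for single lncRNAs below, is therefore common. All days are compared with the same 2 day 0 libraries.

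Neat1 stood at 91.8 and 68.8 FPKM at day 0, 66.4 and 56.1 at day 1, 35.5 and 24.01 at day 3, 62.3 and 62.8 at day 5, and 80.7 and 59.9 at day 10. Both day 3 libraries lay below all 8 others, while the other days overlapped their neighbours or lay close to them. The mean was 80.3 ± 16.3 FPKM at day 0 and 29.8 ± 8.16 at day 3 (SD, n = 2). The fitted change was -1.44 ± 0.24 (log2, SE) at day 3 with an adjusted p of 0.00246, and 1.25 ± 0.24 from day 3 to day 10 with an adjusted p of 0.0063. Both calls were kept when any single library was left out (adjusted p 0.00298 to 0.0201 and 0.00815 to 0.0465), and the second was lost when the 2 days were fitted alone (adjusted p = 0.0504). On a scale of total reads, in place of the median ratios that the deposited values follow, the median of all genes shifts by 0.779 at day 3, and the change of Neat1 there was -0.61 (adjusted p = 0.0326), that from day 3 to day 10 was 0.53 (adjusted p = 0.0567). Changes are given relative to the deposited scale. In order of the means, the days ran 0, 10, 5, 1 and 3, and only day 3 stood apart from its neighbour beyond the spread of the libraries.

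Paraspeckles are built from Neat1 and a set of RNA-binding proteins. Of 12 genes for these proteins, 4 were called higher and 1 lower at day 3, with a median change of 0.38 beside 0.01 for all genes, of which 48.8% were called. Nono, a core paraspeckle protein, rose by 0.98 (adjusted p = 0.000699) and Rbm14 by 0.84 (adjusted p = 0.0166), while Hnrnph3 fell by 0.48 (adjusted p = 0.0349). From day 3 to day 10, 0 were called higher and 4 lower, when 37.9% of all genes were called, with Rbm14 at -0.96 (adjusted p = 0.0129) and Nono at -0.85 (adjusted p = 0.00182). On the scale of total reads 10 of 12 were called higher at day 3 and Hnrnph3 turned to 0.34 (adjusted p = 0.118). The median change of all genes was itself 0.786 on that scale, and the share of all genes called there is not given. A difference between Neat1 and these genes as a group was not tested. The values of Neat1 sum its isoforms, so the level of the long isoform, which builds paraspeckles, was not measured apart.

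**Figure D2:**
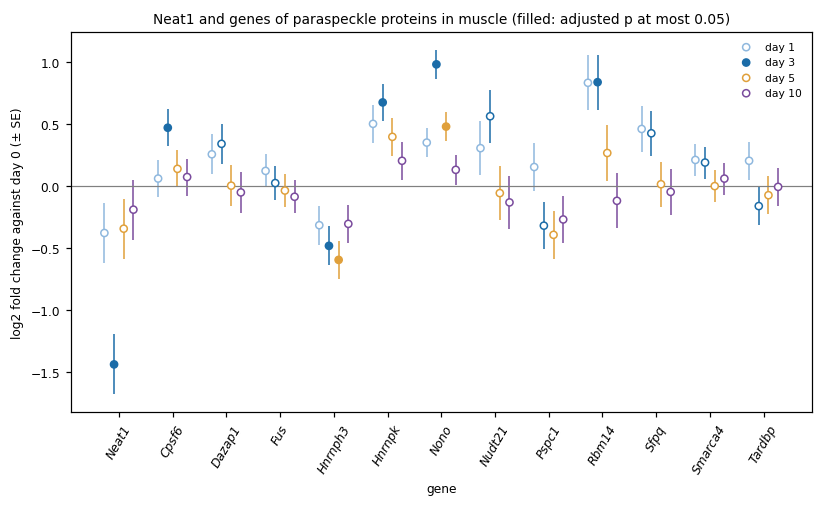
Fitted log2 changes of Neat1 and the genes of 12 paraspeckle proteins in muscle on each day against day 0, with bars of 1 SE. Filled circles have an adjusted p of at most 0.05. Neat1 at day 3 is the lowest point (-1.44) and Nono at day 3 the highest (0.98).

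Malat1 was at 239 and 269.7 FPKM at day 0, 212 and 353 at day 1, 185 and 181 at day 3, 400.0 and 393 at day 5, and 263 and 252 at day 10. The day 5 libraries were the highest of all and the day 3 libraries the lowest, and day 1 spanned the levels of day 0 and day 10. Its fitted change was -0.47 ± 0.23 at day 3 (adjusted p = 0.12) and 0.64 ± 0.23 at day 5 (adjusted p = 0.0727), and neither was called. The day 3 value has no settled sign, since it was 0.36 on the scale of total reads and 0.08 after quantile normalization. The day 5 value was called on both of those scales (1.04, adjusted p = 0.0196, and 1.07, adjusted p = 0.0279). Leaving out either library of day 1, which differ from each other, gave an adjusted p of 0.0178 to 0.0196 for the same values at days 3 and 5. The other omissions of a library gave no call, with an adjusted p up to 0.324 at day 3 and 0.28 at day 5. By FPKM, Malat1 was 2.60 to 7.53 times Neat1 in muscle. This ratio was 2.60 and 3.92 at day 0 and 5.20 and 7.53 at day 3. The FPKM of Neat1 divides reads of a short and a long isoform by the exonic length of the long one. The ratio therefore depends on the shares of these isoforms, which were not measured. Of 9 genes for nuclear speckle proteins, 0 were called at day 3 by limma or voom, where limma called 48.8% of all genes. Of the 9, 2 had an unadjusted p of at most 0.05, and the median change was 0.11. On the scale of total reads, 9 of 9 were called higher, but the median change of all genes was itself 0.786 there. The share of all genes called on that scale is not given, so this count does not set these genes apart.

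Bc1 rests on very few reads in muscle. It had 0 and 4 reads at day 0, 8 and 6 at day 1, 25 and 11 at day 3, 5 and 9 at day 5, and 1 and 5 at day 10, which gave 0 and 1.78, 3.33 and 2.72, 7.54 and 3.24, 1.83 and 2.72, and 0.486 and 2.24 FPKM. The lower day 3 library lay just under the higher day 1 library. Day 3 did not overlap day 0, which was the case for 77.9% of all genes tested. Summed over the libraries, 36 reads at day 3 against 4 at day 0 made a ratio of 5.81, with an exact 95% interval of 2.08 to 22.5 that covers counting error only. The fitted change at day 3 was 3.54 ± 1.25 with an adjusted p of 0.0482. This call was lost when any 1 of 9 libraries was left out (adjusted p up to 0.226), with a pseudocount of 0.01, without the filter, after quantile normalization, when the 2 days were fitted alone, and with a term for Xist-expressing libraries (2.94, adjusted p = 0.202). The 5′ part of Bc1 resembles ID repeats, which have many copies in rodent genomes, and how reads with several matches were counted is not given in the sources used here, so its level is uncertain.

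Proteins that bind Bc1 or take part in the translation step that it represses had 2 of 6 genes called higher and 0 lower at day 3, with a median of 0.29, where 48.8% of all genes were called. Pabpc1, the poly(A)-binding protein, rose by 1.36 (adjusted p = 0.0018), and Eif4a1, the RNA helicase of translation initiation, by 1.17 (adjusted p = 0.00614). At day 1, when 6% of all genes were called, the same 2 genes were higher, by 1.26 (adjusted p = 0.0269) and 1.13 (adjusted p = 0.0431). From day 3 to day 10 both fell, with changes of -1.05 (adjusted p = 0.00742) and -0.97 (adjusted p = 0.0175).

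2310043L19Rik was at 0.345 and 2.58 FPKM at day 0, 2.20 and 0.327 at day 1, 5.23 and 8.36 at day 3, 2.55 and 2.98 at day 5, and 0.936 and 3.67 at day 10. The day 3 libraries were above all 8 others, at 72 and 118 reads, while days 0, 1 and 10 each held a library of 3 to 8 reads beside one of 22 to 34. The fitted change at day 3 was 2.62 ± 1.05 with an adjusted p of 0.0722, and it was not called. With a pseudocount of 1 it was 1.80 (adjusted p = 0.0401), by voom 2.67 (adjusted p = 0.033), on the scale of total reads 3.39 (adjusted p = 0.0289) and without replicate 2 of day 0 it was 3.91 (adjusted p = 0.0259). Over the 10 omissions of a library the change ran from 1.33 to 3.91, with an adjusted p up to 0.374. Only 1 of these omissions gained a call, and under the remaining settings the change stayed uncalled. The summed reads, 190 at day 3 and 27 at day 0, gave a ratio of 4.54 (exact 95% interval 3.03 to 7.08, counting error only). The spread between the 2 day 0 libraries is wider than counting error, with intervals of 0.0711 to 1.01 and 1.65 to 3.83 FPKM. The 4 markers of myoblasts and satellite cells summed to 317 to 333 FPKM at day 3 and 23.5 to 28.8 at day 0, and their part in the level of 2310043L19Rik was not tested.

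Gm5532 was at 2.04 and 1.70 FPKM at day 0, 1.17 and 0.966 at day 1, 0.850 and 0.448 at day 3, 0.250 and 0.161 at day 5, and 1.41 and 1.196 at day 10. Neighbouring days did not overlap anywhere in the order day 0, 10, 1, 3 and 5, and the counts behind the extremes were 56 and 50 reads at day 0 and 9 and 7 at day 5. The change was -1.44 ± 0.31 at day 3 (adjusted p = 0.00733) and -2.70 ± 0.31 at day 5 (adjusted p = 0.00792). From day 3 to day 10 it rose by 0.95 (adjusted p = 0.0461), a call lost when any 1 of 9 libraries was left out (adjusted p up to 0.255). On the scale of total reads the day 3 value was -0.69 (adjusted p = 0.0859) and the day 5 value -2.33 (adjusted p = 0.0107). The day 5 call was lost without replicate 1 of day 0, without replicate 2 of day 5 (adjusted p = 0.0715), and with a term for Xist-expressing libraries, where the change was -3.49 (adjusted p = 0.107). That term is set by the day 3 libraries alone, since day 0 and day 5 differ wholly in Xist, so it cannot test this change. By reads, day 0 exceeded day 5 9.24 times (exact 95% interval 5.44 to 16.8, counting error only).

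AI480526 had the smallest ratio of highest to lowest level of the 6 tested lncRNAs in muscle. Its values were 6.17 and 4.58 FPKM at day 0, 4.45 and 3.82 at day 1, 5.32 and 4.89 at day 3, 6.001 and 6.53 at day 5, and 6.83 and 7.04 at day 10. The fitted changes ran from -0.36 at day 1 (95% interval -0.75 to 0.04) to 0.38 at day 10 (-0.02 to 0.77), and none was called by limma. On the scale of total reads it was higher at day 3 by 0.76 (adjusted p = 0.00628) and at day 5 by 0.62 (adjusted p = 0.0351), so that its direction at day 3, -0.06 as deposited, depends on the scale.

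Gm2694 was at most 0.0430 FPKM in muscle, with 4 and 5 reads at day 3 and 0 to 3 elsewhere, and a difference between days was not detectable at this depth. 5430401H09Rik was at 1.18 and 1.43 FPKM at day 0, 0.0386 and 0.126 at day 1, 0.0280 and 0 at day 3, 0.306 and 0.659 at day 5, and 2.62 and 3.96 at day 10. Its reads numbered 122 at day 0, 8 at day 1, 2 at day 3, 65 at day 5 and 306 at day 10, summed over 2 libraries. The 2 reads of day 3 against the 306 of day 10 correspond to a ratio of 239.7 with an interval of 65.8 to 1988, which describes the contrast for which the gene was chosen.

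**Figure D3:**
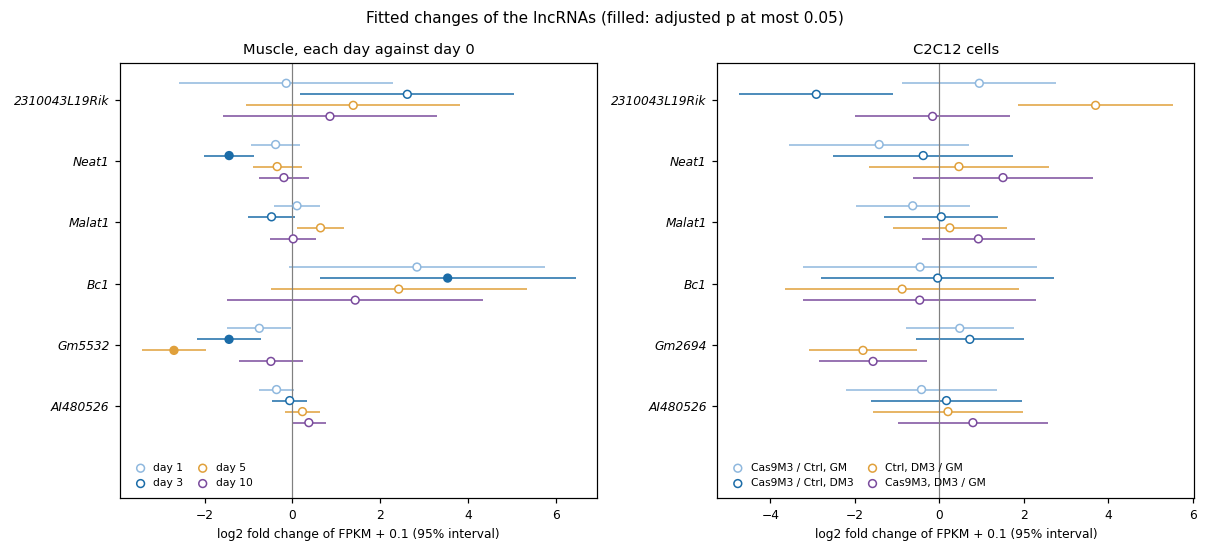
Fitted log2 changes of the tested lncRNAs with 95% intervals, in muscle for each day against day 0 (left) and in C2C12 cells for 4 comparisons (right). Filled circles have an adjusted p of at most 0.05, which holds for Neat1, Bc1 and Gm5532 at day 3 and for Gm5532 at day 5, and for none in C2C12 cells.

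Of the genes beside or overlapping the lncRNAs, 15 were tested in muscle, and 5 were called higher and 3 lower at day 3, with a median of -0.19, beside 48.8% of all genes called. Frmd8, 4223 bases from Neat1, rose by 0.43 at day 3 (adjusted p = 0.0438). Beside Gm5532, Xpr1 was at -1.08 (adjusted p = 0.0329) and Acbd6 at -0.57 (adjusted p = 0.0192) at day 3. On the scale of total reads Acbd6 was at 0.24 at day 3 and was not called. Prkar2b and Pik3cg, on the 2 sides of 5430401H09Rik, rose by 2.29 (adjusted p = 0.0063) and 2.87 (adjusted p = 0.00182) at day 3, and Pik3cg encodes a kinase subunit of leukocytes. The day 3 level of 5430401H09Rik was part of the contrast for which it was chosen, so a relation to these rises was not tested.

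Malat1, AI480526 and Gm2694 share exonic bases with genes on the other strand. Gm37376, a gene of 453 bases that lies wholly inside the Malat1 exon on the opposite strand, was at 417 to 1163 FPKM in muscle and 3.98 to 18.1 FPKM in C2C12 cells. Within a library it was 2.26 to 2.96 times Malat1 in muscle and 0.0206 to 0.170 times Malat1 in C2C12 cells. AI480526 shares exonic bases with Gm38102 and 4932422M17Rik, both on the other strand, and in muscle these stood at 0.885 to 1.18 and 0.480 to 0.598 times AI480526. In C2C12 cells they stood at 0 to 0.336 and 0.0294 to 0.853 times AI480526, at no more than 0.235 FPKM. Gm2694 shares 263 exonic bases with Gm27016 on the other strand and 236 with Gm19872 on its own strand. The strand setting of the counting is not given in the sources used here, so the reads of these lncRNAs and of their opposite partners cannot be told apart. The 4 short RNAs annotated inside Neat1 and Malat1 on the same strand (Gm27533, Gm27505, Gm28006 and Gm27694) were listed at 0 in every library.

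**Figure D4:**
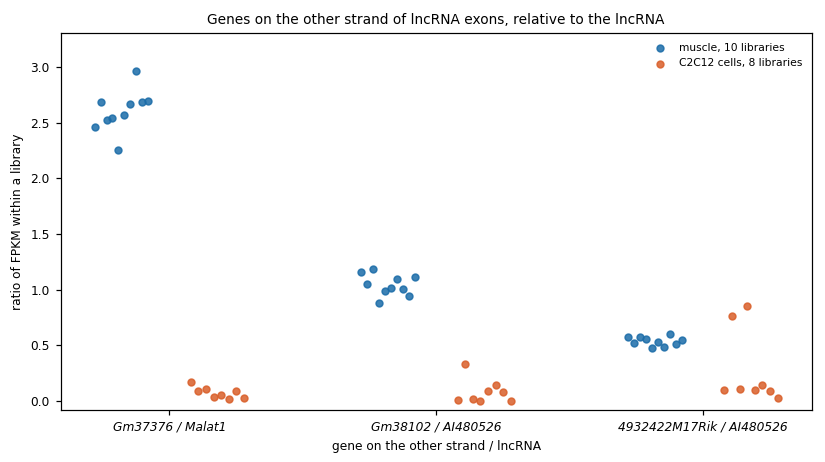
Ratio of the FPKM of a gene on the opposite strand to that of the lncRNA whose exons it overlaps, 1 point per library. Gm37376 is at 2.26 to 2.96 times Malat1 in the 10 muscle libraries and at most 0.170 times Malat1 in the 8 C2C12 libraries.

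No tested lncRNA passed the adjusted test in C2C12 cells, for the Mettl3 knockdown or for differentiation. With Cas9M3 against Ctrl, 0 of 6 were called in GM (0% of all genes) and 0 of 6 on DM3 (1.98%). From GM to DM3, 0 of 6 were called in Ctrl (1.14%) and 0 of 6 in Cas9M3 (0.0289%), and the difference between the knockdown effects on DM3 and in GM was called for 0 of 6 (0%). The numbers with an unadjusted p of at most 0.05 were 0, 1, 2, 1 and 1 of 6 in the same order (9%, 17.6%, 18.2%, 12.6% and 8.67% of all genes), and voom called 0 of 6 in each. Each such unadjusted p belonged to 2310043L19Rik or Gm2694. Both passed the filter only through groups where they are high, so these counts are no support. With the replicate number as a block, the share of all genes called rose to 3.65% for the knockdown on DM3, to 2.97% for differentiation of Ctrl and to 0.0651% for that of Cas9M3, and the lncRNAs called by limma stayed at 0. The 5 comparisons share their libraries.

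**Figure D5:**
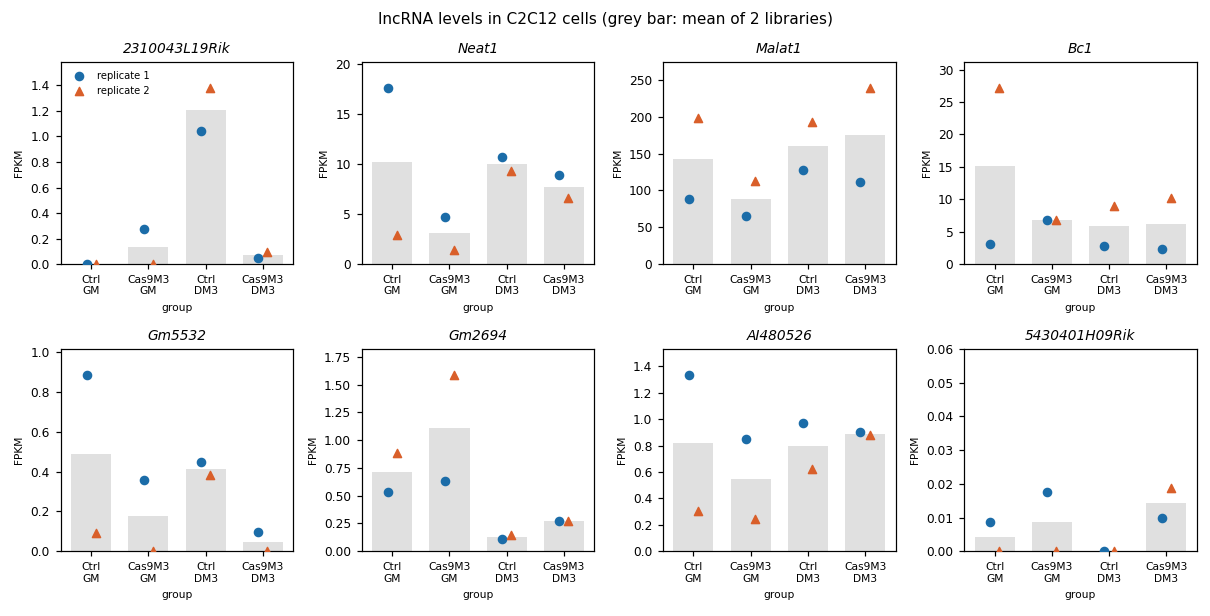
Levels of the 8 lncRNAs in C2C12 cells by group, in FPKM from 0, with circles for replicate 1, triangles for replicate 2 and grey bars for the mean of 2 libraries. 2310043L19Rik is at 1.04 and 1.38 FPKM in Ctrl DM3 and at most 0.272 elsewhere, and Malat1 is higher in replicate 2 than in replicate 1 of each group.

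2310043L19Rik was seen mainly in differentiated control cells. It had 0 and 0 reads in Ctrl GM, 6 and 0 in Cas9M3 GM, 20 and 16 in Ctrl DM3 and 1 and 1 in Cas9M3 DM3, or 0 and 0, 0.272 and 0, 1.04 and 1.38, and 0.0514 and 0.0975 FPKM. The Ctrl DM3 libraries lay above all 6 others. The fitted change from Ctrl GM to Ctrl DM3 was 3.70 ± 0.76 (adjusted p = 0.088) and that of the knockdown on DM3 was -2.91 ± 0.76 (adjusted p = 0.115), and the difference of the knockdown effect between DM3 and GM was -3.86 ± 1.07 (adjusted p = 0.391). By reads, Ctrl DM3 exceeded Cas9M3 DM3 17.4 times (exact 95% interval 4.48 to 149.0), and it was at least 11.3-fold higher than Ctrl GM with a floor of 3 reads over that group. Because the gene entered the test through the Ctrl DM3 libraries, a p of Ctrl DM3 against another group is conditioned on that group being high, so these values are a description. Without the filter neither change was called.

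The 3 genes most like it over the 8 libraries were Cacng1, a subunit of the muscle calcium channel (Pearson r = 0.988), Myod1, the myogenic transcription factor (r = 0.981), and Fgf21, a secreted growth factor (r = 0.975). Myogenic markers (Pax7, Myf5, Myod1 and Myog) summed to 136 to 137 FPKM in Ctrl DM3 and 17.2 to 18.9 in Cas9M3 DM3. Zbtb18, the nearest protein-coding gene on one side at 190777 bases, rose by 2.35 on DM3 in Ctrl (adjusted p = 0.0206) and fell by 1.59 with the knockdown on DM3 (adjusted p = 0.0269). In muscle the genes most like 2310043L19Rik over 10 libraries were Scml4, Zc2hc1a and Gm26827 (r = 0.962, 0.962 and 0.958). These correlations are descriptions across libraries that share groups and scaling.

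Neat1 was at 17.6 and 2.92 FPKM in Ctrl GM, 4.76 and 1.43 in Cas9M3 GM, 10.8 and 9.29 in Ctrl DM3, and 8.89 and 6.60 in Cas9M3 DM3. In GM replicate 1 was far above replicate 2 in both lines, while the DM3 libraries of each line lay close together, with Cas9M3 below Ctrl. The lines did not overlap on DM3 for 63.5% of all genes tested. The knockdown changes were -1.42 in GM (95% interval -3.55 to 0.71, adjusted p = 0.686) and -0.38 on DM3 (-2.51 to 1.75, adjusted p = 0.9). With the replicate block limma gave an adjusted p of 0.366 and 0.751 for these changes. Neat1 and AI480526 were lower, and Malat1 and Bc1 higher, in replicate 2 than in replicate 1 of all 4 groups, beside 21% and 21.4% of all tested genes with the same order. The replicate 2 libraries were the shallower ones, and the part of depth was not tested.

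Malat1 was at 88.1 and 198 FPKM in Ctrl GM, 64.9 and 113 in Cas9M3 GM, 128 and 193 in Ctrl DM3, and 111 and 238 in Cas9M3 DM3. The groups overlapped, except Cas9M3 GM and Ctrl DM3, and replicate 2 was above replicate 1 in each. The knockdown changes were -0.63 (95% interval -1.98 to 0.72) in GM and 0.05 (-1.30 to 1.40) on DM3. Of the 9 nuclear speckle genes and 12 paraspeckle genes, 0 were called in any of the 5 comparisons by limma or voom, where limma called 0% to 1.98% of all genes. At most 4 of the 12 and 1 of the 9 had an unadjusted p of at most 0.05, beside 8.67% to 18.2% of all genes.

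Bc1 was better covered in C2C12 cells than in muscle, at 11 to 44 reads per library. It stood at 3.18 and 27.1 FPKM in Ctrl GM, 6.79 and 6.81 in Cas9M3 GM, 2.82 and 8.94 in Ctrl DM3, and 2.35 and 10.1 in Cas9M3 DM3. One Ctrl GM library was the highest of all and its partner among the lowest, and the knockdown change in GM, -0.45 (95% interval -3.22 to 2.31), turned to 1.07 without that library.

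Gm2694 was detected in every C2C12 library. It was at 0.537 and 0.883 FPKM in Ctrl GM, 0.629 and 1.58 in Cas9M3 GM, 0.108 and 0.146 in Ctrl DM3, and 0.275 and 0.273 in Cas9M3 DM3. Neither the GM and DM3 libraries of a line nor the Ctrl and Cas9M3 libraries on DM3 overlapped, as was the case for 47.2% of all genes between GM and DM3 in Ctrl, 48.0% in Cas9M3 and 63.5% between the lines on DM3. Its 4 GM libraries were also the only ones to reach 0.5 FPKM, so it entered the test through the groups where it is high, and its comparison of GM with DM3 is a description. The change on DM3 in Ctrl was -1.81 ± 0.53 and that in Cas9M3 was -1.57 ± 0.53. By reads, Ctrl GM exceeded Ctrl DM3 5.04 times (exact 95% interval 3.40 to 7.69, counting error only) and Cas9M3 DM3 exceeded Ctrl DM3 2.24 times (1.44 to 3.54). Cbln1, the secreted synaptic protein encoded inside its span on the other strand, was at 4.63 and 4.40 FPKM in Ctrl GM and 0.817 and 0.930 in Ctrl DM3, and at 5.34 and 4.37 in Cas9M3 DM3. Its change with the knockdown on DM3 was 2.34 (adjusted p = 0.0379), and that on differentiation of Ctrl was -2.25 (adjusted p = 0.052, or 0.0402 with the replicate block).

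Gm5532 did not pass the filter in C2C12 cells. It was at 0.884 and 0.0939 FPKM in Ctrl GM, 0.359 and 0 in Cas9M3 GM, 0.446 and 0.381 in Ctrl DM3, and 0.0976 and 0 in Cas9M3 DM3. On DM3 the Cas9M3 libraries, with 6 and 0 reads, lay below the Ctrl libraries, with 27 and 14, a ratio of 6.60 (exact 95% interval 2.79 to 19.02, counting error only), and no test across genes was made. Between the lines on DM3, 63.5% of all genes tested did not overlap either. AI480526 was at 1.33 and 0.307 FPKM in Ctrl GM, 0.852 and 0.242 in Cas9M3 GM, 0.972 and 0.623 in Ctrl DM3, and 0.904 and 0.879 in Cas9M3 DM3, and its knockdown change on DM3 was 0.17 (95% interval -1.61 to 1.95). 5430401H09Rik had at most 2 reads in any C2C12 library and at most 0.0188 FPKM.

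The study listed 37 other lncRNAs beside these, chosen by the study on its overexpression libraries, of which 22 were tested in muscle and 21 in C2C12 cells. At day 3, 10 were called higher and 2 lower, with a median of 0.42, beside 48.8% of all genes and 41.2% of lincRNA genes called. The largest rises were those of Gm14635 (5.56, adjusted p = 0.000356) and Gm38403 (4.48, adjusted p = 0.000481), and 2310065F04Rik (-2.66, adjusted p = 0.0115) and 2310001H17Rik (-1.96, adjusted p = 0.00365) fell. From day 3 to day 10, 1 was called higher, 2310001H17Rik (1.79, adjusted p = 0.00755), and 8 lower, led by Gm14635 (-4.91, adjusted p = 0.000736) and Gm37565 (-4.44, adjusted p = 0.00211), beside 37.9% of all genes and 33.3% of lincRNA genes. At day 5, 3 were called higher and 2 lower, beside 25.5% and 21.7%. At days 1 and 10 against day 0 limma called 0, beside 6% and 0.00597% of all genes. On these days 3 and 4 had an unadjusted p of at most 0.05, beside 26.8% and 10.1% of all genes, and voom called 1 and 0.

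Of 24 other well-known lncRNAs, 19 were tested in muscle, and 6 were called higher and 3 lower at day 3, with a median of 0.55, beside 48.8% of all genes and 41.2% of lincRNA genes called. Dnm3os, host of a miRNA cluster, rose by 2.51 (adjusted p = 0.00274) and Mir142hg, host of a blood cell miRNA, by 2.45 (adjusted p = 0.000751), while Nctc1, a muscle lncRNA beside H19, was at -2.42 (adjusted p = 0.000607) and Lncpint at -1.82 (adjusted p = 0.0419). At day 5, 8 were called higher and 0 lower, beside 25.5% and 21.7% called in either direction, led by Meg3 (3.19, adjusted p = 0.0125) and Mirg (3.06, adjusted p = 0.0142) of the same imprinted cluster. Across the 5 lists, 0 of 61 genes tested in C2C12 cells were called in any comparison by limma, beside 0% to 1.98% of all genes. Of these 61, 2 to 16 had an unadjusted p of at most 0.05, beside 8.67% to 18.2% of all genes over the same comparisons. By voom 1 was called, of the lncRNAs listed by the study, as lower with the knockdown on DM3, where voom called 409 of 13805 genes. With the replicate block limma called 1 higher and 3 lower with the knockdown on DM3 (Epb41l4aos at 1.44, and Gm14635, Gm35019 and Gm6093 at -3.05, -2.75 and -2.53, adjusted p 0.0294 to 0.0493). With the block it also called 2 higher and 1 lower on differentiation of Ctrl (Gm14635 at 3.28, Oip5os1 at 1.203 and Epb41l4aos at -1.43, adjusted p 0.0356 to 0.0483), and 0 in the other 3 comparisons. With the block 3.65% of all genes were called for the knockdown on DM3 and 2.97% for differentiation of Ctrl. Through which groups the named genes passed the filter was not examined, so their calls are a description and no support.

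The genes most like the remaining lncRNAs in muscle were found in the same way over 10 libraries. For Neat1 they were Ldha, a glycolytic enzyme of muscle (r = 0.979), Cep97 (r = 0.977) and Dnajc30 (r = 0.975). Malat1 was closest to its own opposite partner Gm37376 (r = 0.987), then to Gm20417 (r = 0.947) and Clec1a (r = 0.943). Gm5532 was closest to Ei24 (r = 0.968), Gm15441 (r = 0.953) and Six2 (r = 0.945), and AI480526 to Trmu (r = 0.970), Gm43481 (r = 0.962) and 9530062K07Rik (r = 0.945). Bc1 was closest to Trim47 (r = 0.964), and 5430401H09Rik to Sdhaf4, an assembly factor of mitochondrial complex II (r = 0.986). In C2C12 cells the closest genes were Xpc for Neat1 (r = 0.987), Gm4540 for Malat1 (r = 0.959), Uqcrq for Bc1 (r = 0.975), Trmu for Gm2694 (r = 0.974) and Fbxl20 for AI480526 (r = 0.984).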

How the data were processed

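Per the labels and methods, RNA of muscle and C2C12 cells was made into mRNA-Seq libraries, reads were mapped to GRCm38 by HISAT2 and assigned to genes by featureCounts. The FPKM values, which the authors deposited in 1 table per experiment, come from the fpkm function of DESeq2. Versions and the strand setting are not given in the sources used here. The Mettl3 overexpression libraries were not analysed here. The 8 lncRNAs and all gene lists were chosen with earlier results of these data known.

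Groups and replicate numbers were read from the sample labels. Exon lengths of GENCODE M21 were matched to 53274 of 53465 genes in the muscle table and 55141 of 55487 in the C2C12 table. With them, 97.2% to 98.0% and 98.8% to 99.0% of the low values of a library (up to 10 reads) were whole reads within 0.05 read, and 1 read on 1 kb of exon equals at most 0.0817 and 0.104 FPKM. Exact Poisson and conditional binomial intervals (95%) cover counting error only, and reads without molecular identifiers are not independent molecules. Genes that reached 0.5 FPKM in 2 or more libraries were fitted as log2(FPKM + 0.1) with limma 3.58.1 (lmFit, eBayes with trend, R 4.3.3), all groups of a table together, two-sided, with Benjamini-Hochberg adjustment over all genes tested. Fold changes on this scale understate the change of low genes. On simulated data with 200 genes changed by 3 (log2), the fit called 183 of 200 on muscle day 3, with 7 unchanged genes called among 16753, and 167 of 200 for Ctrl differentiation, with 9 among 13824. The changed genes were drawn only from those with a positive mean on this scale. The noise was normal and independent, without pairing or counting error, so recovery of genes with few reads was not tested. Deviations of libraries with the same replicate number correlated at 0.278 to 0.68 in C2C12 cells, in all 6 pairs of groups, which is taken as pairing, and at -0.0187 to 0.211 in muscle, which is not. In C2C12 cells replicate number and depth cannot be told apart in this correlation, since the same replicate was the shallower in each group. Intervals and adjusted p of C2C12 cells are from the fit without the replicate block unless the block is named.

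The genes named are the 8 lncRNAs, Mettl3, the nearest protein-coding genes and those that overlap exons, the 3 genes most like each lncRNA by Pearson r of log2(FPKM + 0.1), and of each list the 2 largest rises and falls among the called genes. Xist was named after its values were seen. The result of 1 neighbouring gene is not reported here. Alternatives were pseudocounts of 1 and 0.01, quantile normalization, median-ratio scaling, a filter set to 1 FPKM or left out, a fit restricted to the groups compared, a replicate block, a term for libraries with at least 1 FPKM of Xist, a log2 change of at least 2 beside the adjusted p, and each library left out in turn. Voom on recovered reads (16735 and 13805 genes), voom with the block and scaling to total reads were chosen after seeing the data. Counts were computed with Python 3.11.15 and pandas 2.3.3.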

Additional observations from a re-analysis of the deposited data

How the results depend on the processing

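Each tested lncRNA in each comparison was recomputed under every alternative that could be run, and of 1174 values 1067 kept their direction and side of the threshold, 33 lost and 21 gained a call and 53 changed sign. No lncRNA that was called changed sign. The cause of the changes was not tested. In the limma fit the replicate block changed no call of a lncRNA (0 of 6 in C2C12 cells and 3, 1 and 2 of 6 in muscle for days 3 and 5 against day 0 and day 10 against day 3), and in muscle the numbers mark no shared origin. With 2 libraries per group and few reads on Bc1, 2310043L19Rik and Gm5532, the lack of a call does not show that a level was unchanged.

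The number of lncRNAs called at day 3 against day 0, 3 of 6, became 1 when a log2 change of at least 2 was also required. That at day 5, 1 of 6, became 2 with quantile normalization, 0 with the Xist term and 3 with scaling to total reads. That from day 3 to day 10, 2 of 6, became 1 with a pseudocount of 0.01 or no filter, and 0 with a log2 change of at least 2, with only the groups compared or with scaling to total reads. In C2C12 cells the 0 of the knockdown on DM3 became 1 with a pseudocount of 1 or only the groups compared, and the 0 of Ctrl differentiation became 1 with a pseudocount of 1 or voom with the replicate block, which called Gm2694 where voom without it did not. These C2C12 calls are of 2310043L19Rik and Gm2694, which entered the test through the groups where they are high, and are no support. Leaving out 1 library at a time gave 2 to 4 at day 3, 0 to 2 at day 5, 1 to 2 from day 3 to day 10, and 0 to 1 for Ctrl differentiation. The shares of all genes called in muscle with a log2 change of at least 2 are given above. For the other settings the share is not given, so these counts do not set the lncRNAs apart from other genes.

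Signs changed for values that were not called on the deposited scale. With scaling to total reads, 2310043L19Rik became 0.087 at day 1 (0.53 with the Xist term), Malat1 0.36 (0.075 with quantile normalization) and AI480526 0.76 at day 3, Neat1 0.052 at day 5, and Malat1 -0.22 and AI480526 -0.27 from day 3 to day 10. In C2C12 cells Bc1 became 0.030 for the knockdown in GM and -0.13 for the difference of knockdown effects by voom, AI480526 -0.043 by voom and -0.076 by voom with the replicate block for Ctrl differentiation, 2310043L19Rik 0.61 for Cas9M3 differentiation with a pseudocount of 0.01, and Gm2694 -0.093 with a pseudocount of 1 and -0.15 with quantile normalization for the difference of knockdown effects.

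Leaving out 1 library at a time moved these values across 0. At day 1, 2310043L19Rik ran from -1.43 to 1.16 and Malat1 from -0.26 to 0.47, and at day 3 AI480526 ran from -0.27 to 0.15. At day 10, 2310043L19Rik ran from -0.44 to 2.15, Neat1 from -0.41 to 0.023, Malat1 from -0.067 to 0.11 and Bc1 from -0.68 to 3.55. For the knockdown in GM, Bc1 ran from -1.98 to 1.07, Gm2694 from -0.12 to 1.09 and AI480526 from -1.33 to 0.49, and on DM3 Malat1 ran from -0.50 to 0.60, Bc1 from -1.07 to 0.99 and AI480526 from -0.11 to 0.46. For Ctrl differentiation, Neat1 ran from -0.81 to 1.74, Malat1 from -0.34 to 0.84, Bc1 from -2.41 to 0.65 and AI480526 from -0.70 to 1.11, and for Cas9M3 differentiation 2310043L19Rik ran from -1.11 to 0.79 and Bc1 from -1.49 to 0.57. For the difference of knockdown effects, Neat1 ran from -0.23 to 2.32, Bc1 from -1.11 to 1.94, Gm2694 from -0.37 to 0.84 and AI480526 from -0.32 to 1.498.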
